A study of Mus musculus with 6 samples.

Results

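The 40 genes described here encode lysosomal hydrolases other than cathepsins, their cofactors, proteins of the lysosomal membrane, and transcription factors of the TFEB family. They were taken as a list of gene symbols and looked up in the deposited count table, where all 40 were found among 35275 gene identifiers. The rule names symbols and sets no threshold on a measured value, but the list was drawn up with earlier results of these data known, so its counts are a description. RNA came from livers of p16-Cre/Rosa26-mTmG mice at 1 year of age, in which Cre recombinase is driven by the promoter of p16 (Cdkn2a, a cell-cycle inhibitor used as a marker of senescence) and switches a ubiquitous reporter from membrane Tomato to membrane GFP. Cells were selected on magnetic beads for CD31 (Pecam1), an adhesion molecule of endothelium, and were sorted by GFP. The GFP-positive group and the GFP-negative group held 3 poly-A RNA libraries each, and both carried the same 2 transgenic alleles, age and tissue. GFP marks use of the p16 promoter at any earlier time in the cell or its ancestors, not p16 at the time of the sort. CD31 is also carried by platelets and many leukocytes. The labels name no animal, culture or batch, so the p-values cover only variation from library to library, part of which may be technical. The growth protocol ends in endothelial medium, and the sources used here do not say if RNA was taken before that culture or after it.

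Lysosomes are acidic organelles that break down macromolecules taken up from outside or delivered by autophagy. Soluble hydrolases each remove a particular bond from glycolipids, glycosaminoglycans, glycoproteins, glycogen or lipids, and activators such as the saposins present the substrate to them. Heavily glycosylated membrane proteins line the organelle, and channels and exporters return its products to the cytosol. TFEB, TFE3 and MITF bind E-box sequences in promoters of many lysosomal genes, and are held in the cytosol by mTORC1 when nutrients are plentiful. In the liver, Kupffer cells and sinusoidal endothelial cells are both rich in lysosomes and clear material from portal blood. Lysosomal beta-galactosidase, the product of Glb1, is the enzyme behind the senescence-associated beta-galactosidase stain.

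The GFP-positive libraries held 16766556 to 17849620 counts and the GFP-negative libraries 18067411 to 22627555. Rank correlations between libraries were 0.866 to 0.872 within the GFP-positive group, 0.901 to 0.906 within the GFP-negative group and 0.7 to 0.729 between the groups. Cdkn2a was read at 15, 27 and 7 counts in the GFP-positive libraries and at 0 in every GFP-negative library, where 3 counts over the group would be 0.0496 CPM, the counts of a gene scaled to library size. Pecam1 had 427, 412 and 519.9 CPM in GFP-positive libraries and 307, 387 and 332 CPM in GFP-negative libraries, and did not pass the test (edgeR adjusted p = 0.123). Cell markers differed widely between the groups. Summed marker levels, here and below, take in every listed marker found in the count table, also those not tested. Of 9 Kupffer cell markers tested 8 were higher and 0 lower, with a summed level of 14096 to 15374 CPM in GFP-positive libraries and 1421 to 1532 CPM in GFP-negative libraries. Of 14 macrophage and monocyte markers 9 were higher and 1, Ly6c2, was lower (a call kept in 1 of the 6 fits that left out a library), with a sum of 15695 to 16693 CPM in GFP-positive and 1373 to 1821 CPM in GFP-negative libraries, and Ccr2 was at 0, 0 and 1 counts in GFP-positive and 0, 44 and 0 counts in GFP-negative libraries. Of 10 sinusoidal endothelial markers 9 were higher and 0 lower, at 11234 to 12584 CPM in GFP-positive and 4453 to 5081 CPM in GFP-negative libraries. All 8 B cell markers tested were lower, at 76.8 to 130 CPM in GFP-positive and 12687 to 13902 CPM in GFP-negative libraries, with Pax5 at 0 in the GFP-positive group. All 12 immediate-early and heat shock genes listed were lower, at 457 to 618 CPM in GFP-positive and 7835 to 8242 CPM in GFP-negative libraries. The part of these differences in the lysosomal results was not tested.

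The share of counts in lysosomal genes was higher in each GFP-positive library. The 40 genes together took 1.21%, 1.26% and 1.37% of all counts in GFP-positive libraries, against 0.634%, 0.649% and 0.699% in GFP-negative libraries. Every GFP-positive library lay above every GFP-negative one. Of the 38 genes that passed the filter on low counts, 17 (44.7%) were higher in GFP-positive cells, 2 were lower and 19 did not pass, by the quasi-likelihood test of edgeR, adjusted after Benjamini and Hochberg across the 12122 genes of the fit. Over all genes tested, 7.65% were higher, 10.1% were lower and 17.8% were called in either direction. The median log2 fold change, GFP-positive over GFP-negative, was 0.82 over the 38 genes and -0.09 over all genes tested. Galns and Mitf were not tested. Libraries of the groups did not overlap for 20 genes that lay above in GFP-positive cells and 3 that lay below, while 18.5% of all genes tested lay above and 23.9% below. In bulk libraries, fewer cells of a type and less RNA per cell cannot be told apart. Of the 17 higher genes 11, and both lower genes, passed whichever single library was left out.

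**Figure D1:**
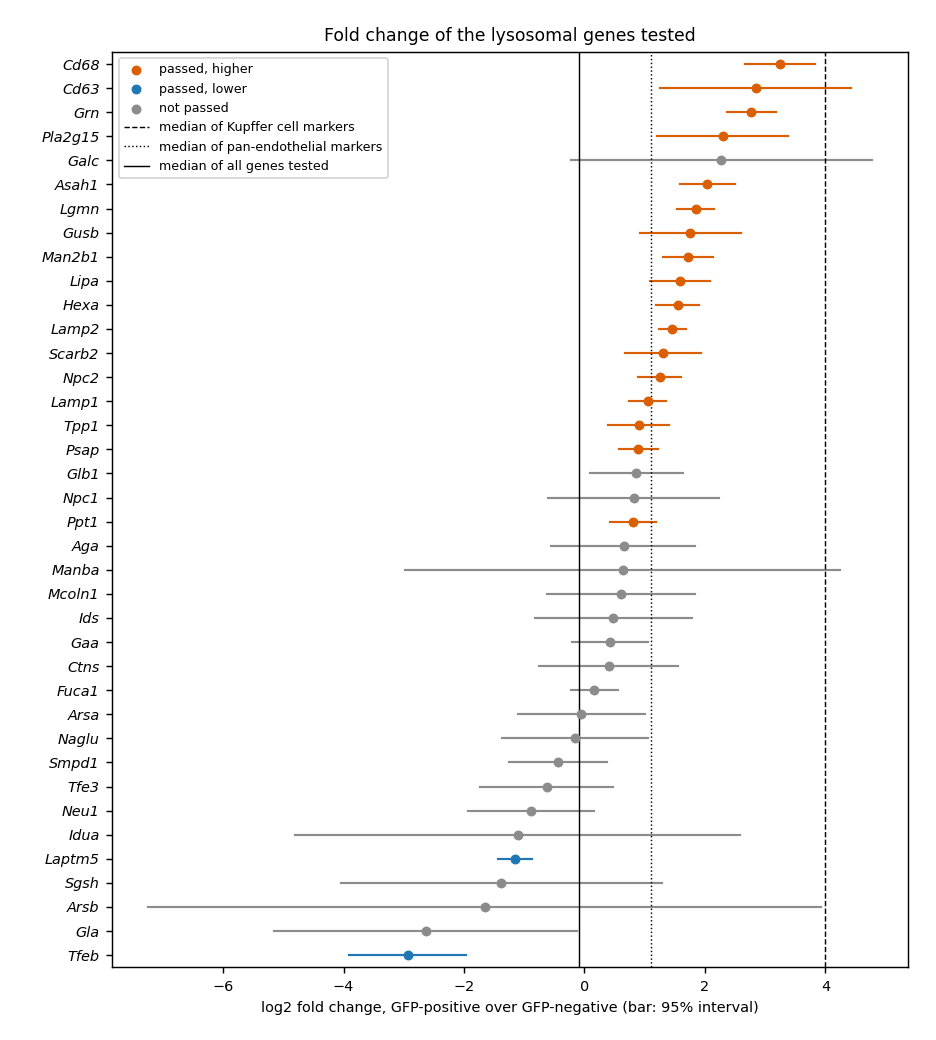
Log2 fold changes of the 38 genes tested, GFP-positive over GFP-negative, with bars for 95% intervals, sorted by fold change. Vertical lines mark the medians of all genes tested (-0.09), of pan-endothelial markers (1.11) and, farthest right, of Kupffer cell markers. Cd68 has the highest value at 3.25, and the lower genes Laptm5 and Tfeb lie left of 0 at -1.15 and -2.93.

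Of the 3 transcription factors 1 was lower, 1 did not pass and 1 was not tested. Tfeb, a master regulator of lysosomal biogenesis (ENSMUSG00000023990), had 5.70, 5.36 and 7.04 CPM in GFP-positive libraries, against 47.9, 38.8 and 51.7 CPM in GFP-negative libraries. Every GFP-positive library lay below every GFP-negative library. The log2 fold change was -2.93 ± 0.41 (SE; 95% interval -3.91 to -1.96; edgeR adjusted p = 0.00447), and it lay between -3.06 and -2.85 under each other normalization, tool or left-out library tried. Tfe3, its ubiquitous paralog, had 47.0, 17.3 and 59.2 CPM in GFP-positive libraries and 63.4, 51.8 and 76.2 CPM in GFP-negative libraries. The groups overlapped, and Tfe3 did not pass at -0.63 ± 0.47 (SE; edgeR adjusted p = 0.437). Mitf, the family member best known from melanocytes and osteoclasts, had 0, 0.0583 and 25.8 CPM in GFP-positive libraries and 17.9, 0.221 and 0.348 CPM in GFP-negative libraries. Nearly all Mitf reads of each group came from 1 library, and the gene was not tested. Tfec, a macrophage-rich relative outside the 40 genes, was at 1.17 ± 0.34 and did not pass (SE; edgeR adjusted p = 0.0558).

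Since these factors recognise E-boxes, the promoter windows of the genes were read for that sequence. RefSeq windows of 250 bases before to 50 bases after the start site (GRCm38.p6) were found for 36 of the 40 genes, and were searched on both strands. A gene was counted if any of its windows held the motif, and some genes had more than 1 window. The E-box CACGTG was in 9 of 36 genes (25%). It was in 11.6% of 9221 genes tested that had a window and 8.09% of all 27025 genes with a window. The longer core TCACGTGA, which contains the E-box, was in Mcoln1 and Gla (5.56%, against 2.3% of genes tested). Among genes higher in GFP-positive cells, 2 of 16 with a window held the E-box, Lamp1 and Lgmn. Among those that did not pass 7 of 17 did, and of the 2 lower genes 0 did. Another motif searched for, the M-box TCATGTG, was in 5 of 36 genes (13.9%), namely Grn, Ppt1, Scarb2, Tpp1 and Gla. It was in 2.75% of genes tested and 4.31% of all 27025 genes with a window. It was in 4 of 16 higher genes (25%), 1 of 17 genes that did not pass (5.88%) and 0 of 2 lower genes. A match is a run of letters and does not show binding. The stretches around the E-boxes are shown to set the windows of the called genes Lamp1 and Lgmn beside those of genes that did not pass. E-boxes are in capitals, and each stretch reads 5′ to 3′ on the strand of its gene. Lgmn had another window, at a different start site (chr12:102439679-102439978), which held 0 E-boxes and is not shown. The Lamp1 stretch (GRCm38.p6 chr8:13159080-13159160, plus strand) holds 4, those of Mcoln1 (chr8:3500428-3500499, plus) and Gla (chrX:134601174-134601252, minus) hold 2, and those of Lgmn (chr12:102439116-102439161, minus), Glb1 (chr9:114401010-114401055, plus) and Gaa (chr11:119267803-119267848, plus) hold 1.
Lamp1: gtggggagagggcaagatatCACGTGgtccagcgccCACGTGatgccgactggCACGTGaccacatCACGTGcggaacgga
Lgmn: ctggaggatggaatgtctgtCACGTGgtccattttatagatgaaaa
Mcoln1: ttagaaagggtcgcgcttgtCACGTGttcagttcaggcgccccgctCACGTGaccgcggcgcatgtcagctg
Gla: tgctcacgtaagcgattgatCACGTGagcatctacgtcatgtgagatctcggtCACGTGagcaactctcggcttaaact
Glb1: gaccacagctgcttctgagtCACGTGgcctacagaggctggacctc
Gaa: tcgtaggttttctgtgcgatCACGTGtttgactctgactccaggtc

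Arsa, Naglu and Sgsh each held 1 E-box in the same window, and none of the 3 passed the test. Windows for Asah1, Aga, Npc1 and Galns were not used here. Of the 16 higher genes with a window, 14 held no E-box in any window of theirs, Cd68 and Grn among them.

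All 6 genes for structural and cargo proteins of the lysosomal membrane passed the test, 5 higher and 1 lower, and their summed level was 4705 ± 270 CPM in GFP-positive cells and 3014 ± 89.3 CPM in GFP-negative cells (SD, n = 3 each). Lamp1, one of the main glycoproteins of the membrane (ENSMUSG00000031447), had 1833, 1491 and 1729.6 CPM in GFP-positive libraries and 715, 920.1 and 809 CPM in GFP-negative libraries. Lamp2, its partner and the receptor of chaperone-mediated autophagy, had 1593, 1529 and 1639 CPM in GFP-positive libraries and 549.6, 608 and 574 CPM in GFP-negative libraries. Neither gene's groups overlapped, and the log2 fold changes were 1.05 ± 0.13 for Lamp1 and 1.46 ± 0.09 for Lamp2 (SE; edgeR adjusted p = 0.00295 and 0.000139). Lamp2 had the narrowest confidence interval of these 6 genes, 1.24 to 1.68. Cd68, a LAMP-family protein abundant in macrophages (ENSMUSG00000018774), had 501, 547 and 529 CPM in GFP-positive libraries and 41.7, 49.2 and 74.5 CPM in GFP-negative libraries. At 3.25 ± 0.25 it had the highest fold change of the 38 genes (SE; edgeR adjusted p = 0.000308). Scarb2, which encodes LIMP-2, an integral membrane protein that also carries cargo to the lysosome, had 137, 195 and 261 CPM in GFP-positive libraries and 71.6, 81.0 and 87.4 CPM in GFP-negative libraries. The groups did not overlap, and Scarb2 passed at 1.30 ± 0.26 on the log2 scale (SE; edgeR adjusted p = 0.018). Scarb2 missed the threshold without any 1 of the GFP-negative libraries, at adjusted p = 0.0775, 0.0726 and 0.059 without library 1, 2 and 3. Cd63, a tetraspanin of late endosomes and exosomes, was at 23.1 to 64.8 CPM in GFP-positive and 3.03 to 10.5 CPM in GFP-negative libraries. It passed at 2.84 ± 0.67 (SE; edgeR adjusted p = 0.0285), and missed the threshold without GFP-positive library 1 or 2 or GFP-negative library 2 or 3, at adjusted p = 0.0902, 0.0684, 0.0907 and 0.0992. Under limma-voom its adjusted p was 0.0613. A processed pseudogene, Cd63-ps, could share its reads, and held 13, 6 and 1 counts in GFP-positive and 0, 2 and 2 counts in GFP-negative libraries.

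Laptm5, a lysosomal membrane protein of cells of the blood lineage that takes part in turnover of antigen receptors (ENSMUSG00000028581), ran the other way. It had 638, 603 and 758 CPM in GFP-positive libraries and 1528, 1371 and 1542 CPM in GFP-negative libraries. All GFP-positive libraries lay below all GFP-negative libraries, and the log2 fold change was -1.15 ± 0.12 (SE; 95% interval -1.44 to -0.87; edgeR adjusted p = 0.00133). Laptm5 was lower beside the 8 B cell markers that were lower, and 2 of 10 T and NK cell markers, summed at 26.4 to 93.2 CPM in GFP-positive and 828 to 920 CPM in GFP-negative libraries, with Cd8a at 0 in the GFP-positive group and at 577, 699 and 448 counts in GFP-negative libraries. Without any 1 of the GFP-positive libraries 4 of these T and NK cell markers were lower. Ncr1 was at 0 in all libraries but GFP-negative library 1, and Klrb1c at 0 in all 6. The part of those cells in its level was not tested.

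**Figure D2:**
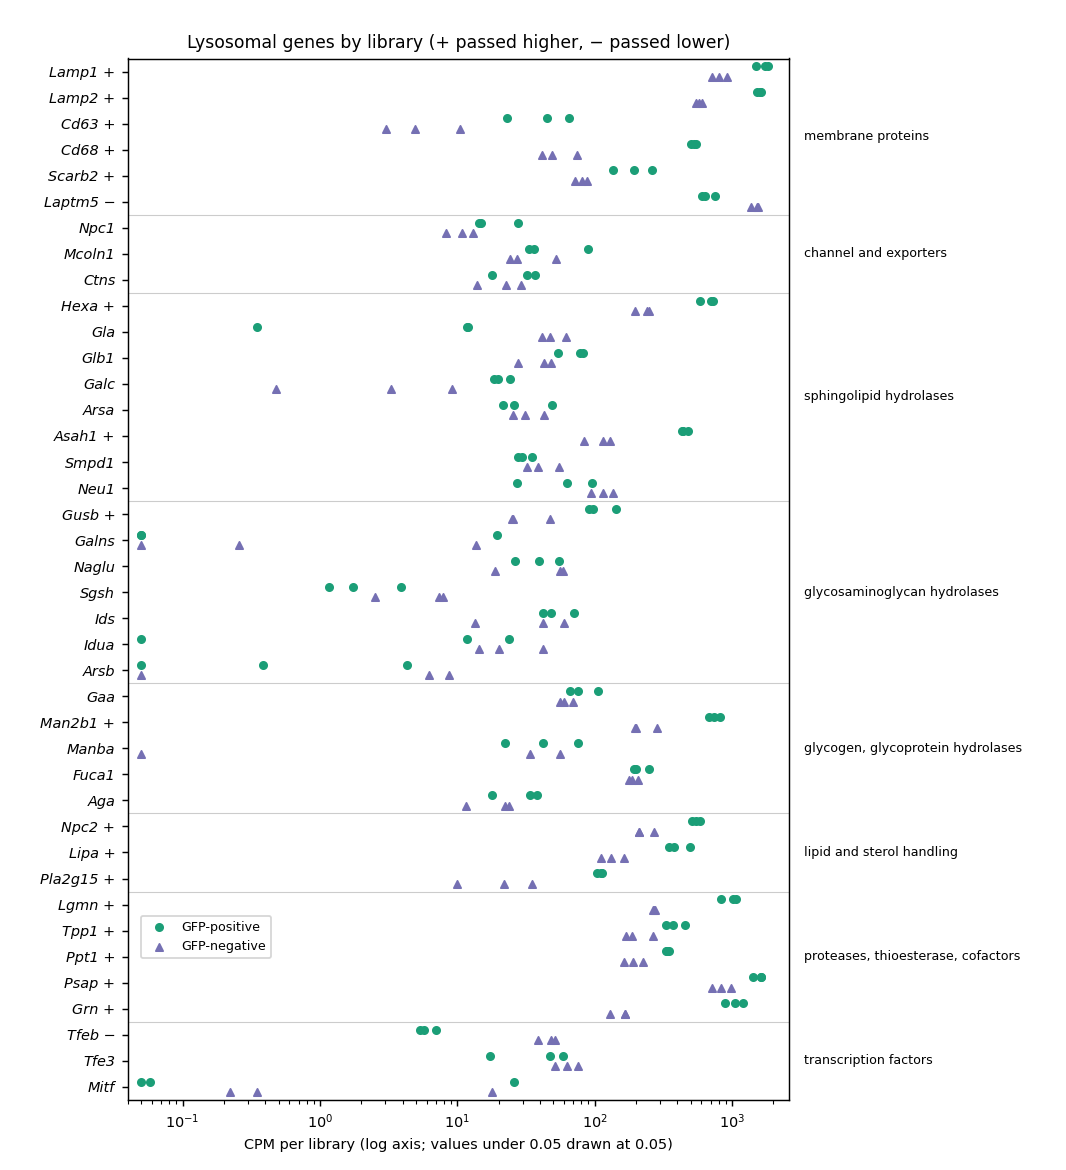
Level of each of the 40 genes in every library, in CPM on a log axis, with GFP-positive libraries and GFP-negative libraries as circles and triangles, and genes grouped by role. Values under 0.05 CPM are drawn at 0.05. For Lamp1, Lamp2, Cd68, Hexa, Asah1, Lgmn and Grn the 3 GFP-positive points all lie above the GFP-negative points, and for Laptm5 and Tfeb they all lie below.

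Channel and exporters gave no call. Mcoln1, the TRPML1 calcium channel, had 33.3 to 89.5 CPM in GFP-positive and 24.4 to 52.7 CPM in GFP-negative libraries, with a log2 fold change of 0.61 ± 0.52 (SE). Ctns, the cystine exporter, was at 18.0 to 36.8 CPM in GFP-positive and 13.9 to 29.3 CPM in GFP-negative libraries, with 0.40 ± 0.49. Npc1, which moves cholesterol out through the lysosomal membrane, was at 14.4 to 27.6 CPM in GFP-positive and 8.32 to 12.9 CPM in GFP-negative libraries. The Npc1 groups did not overlap, yet its interval ran from -0.60 to 2.24, and the edgeR adjusted p-values of the 3 genes were 0.503, 0.657 and 0.427, for Mcoln1, Ctns and Npc1.

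The 3 genes of lumenal lipid handling were all higher, with a summed level of 1065 ± 55.1 CPM in GFP-positive cells and 389 ± 50.6 CPM in GFP-negative cells (SD, n = 3 each). Npc2, the soluble protein that hands cholesterol to NPC1, had 583, 549 and 515 CPM in GFP-positive libraries and 209, 212 and 272 CPM in GFP-negative libraries. Lipa, the acid lipase that hydrolyses cholesteryl esters and triglycerides of lipoproteins, had 379, 346 and 493 CPM in GFP-positive libraries and 112, 163 and 131 CPM in GFP-negative libraries. Pla2g15, the lysosomal phospholipase A2, had 105, 114 and 111 CPM in GFP-positive libraries and 10.0, 35.3 and 21.8 CPM in GFP-negative libraries. None of the 3 overlapped between groups. Log2 fold changes were 1.25 ± 0.15 for Npc2, 1.59 ± 0.21 for Lipa and 2.30 ± 0.46 for Pla2g15 (SE; edgeR adjusted p = 0.00232, 0.00361 and 0.0174). Pla2g15 missed the threshold without GFP-negative library 3, at adjusted p = 0.0707.

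Of 8 hydrolases of sphingolipids and their glycans, 2 (25%) were higher and 6 did not pass. Of all genes tested, 7.65% were higher and 17.8% were called in either direction. Hexa, the alpha subunit of beta-hexosaminidase A, which degrades GM2 ganglioside, had 591, 705 and 724 CPM in GFP-positive libraries and 198, 241 and 251 CPM in GFP-negative libraries. Asah1, acid ceramidase, had 476, 438 and 433 CPM in GFP-positive libraries and 83.2, 129 and 115 CPM in GFP-negative libraries. Groups were apart for both, with log2 fold changes of 1.55 ± 0.15 for Hexa and 2.04 ± 0.19 for Asah1 (SE; edgeR adjusted p = 0.000923 and 0.000887). Smpd1, acid sphingomyelinase, which makes the ceramide that acid ceramidase cleaves, had 27.9 to 34.8 CPM in GFP-positive and 32.4 to 54.7 CPM in GFP-negative libraries, and did not pass at -0.44 ± 0.34. Glb1 had 54.1, 82.7 and 78.4 CPM in GFP-positive libraries and 42.7, 27.5 and 48.0 CPM in GFP-negative libraries. Every GFP-positive library lay above the GFP-negative ones, but Glb1 did not pass after adjustment, at 0.86 ± 0.33 (SE; 95% interval 0.09 to 1.64; edgeR adjusted p = 0.127). Tmppe shares exon sequence with Glb1 on the same strand and was read at 1, 1 and 567 counts in GFP-positive and 211, 50 and 494 counts in GFP-negative libraries.

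Gla, alpha-galactosidase A, the enzyme lacking in Fabry disease, was the one sphingolipid hydrolase with every GFP-positive library below the GFP-negative ones. It had 12.1, 0.35 and 11.7 CPM in GFP-positive libraries and 41.5, 47.1 and 62.0 CPM in GFP-negative libraries. GFP-positive library 2 held 6 counts of it and stood far below the other two. Gla did not pass at -2.64 ± 1.06 (SE; edgeR adjusted p = 0.147), whereas without that library it passed at -2.07 (adjusted p = 0.0285), and DESeq2 also called it (adjusted p = 0.0308). Galc, which cleaves galactosylceramide, had 18.5, 24.1 and 19.7 CPM in GFP-positive libraries and 3.31, 9.10 and 0.479 CPM in GFP-negative libraries. The groups were apart, and Galc did not pass, with an interval of -0.23 to 4.77 (edgeR adjusted p = 0.206). Neu1, the sialidase, was at 27.3 to 95.9 CPM in GFP-positive and 94.2 to 136 CPM in GFP-negative libraries (-0.89 ± 0.44), and Arsa, which desulphates sulphatide, at 21.6 to 48.7 CPM in GFP-positive and 25.4 to 42.8 CPM in GFP-negative libraries (-0.05 ± 0.45); neither passed.

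Of 7 enzymes of glycosaminoglycan breakdown 1 was called and 1 was not tested. That is 16.7% of the 6 tested, near the 17.8% of all genes tested that were called. The count is therefore no result about these enzymes as a list. Gusb, beta-glucuronidase, was higher, with 91.1, 97.6 and 143 CPM in GFP-positive libraries and 47.2, 24.9 and 25.6 CPM in GFP-negative libraries. Its groups did not overlap, and the log2 fold change was 1.76 ± 0.36 (SE; edgeR adjusted p = 0.0181), which missed the threshold without GFP-negative library 2 or 3 (adjusted p = 0.0732 and 0.0718). The heparan sulphate enzymes Ids, Naglu, Sgsh and Idua and the dermatan sulphate enzyme Arsb did not pass, with log2 fold changes of 0.48, -0.15, -1.38, -1.11 and -1.66 and standard errors from 0.51 for Naglu to 2.36 for Arsb. Ids was at 42.5 to 70.4 CPM in GFP-positive and 13.4 to 60.3 CPM in GFP-negative libraries, and Naglu at 26.5 to 54.8 CPM in GFP-positive and 18.9 to 59.4 CPM in GFP-negative libraries. Sgsh was at 1.16 to 3.90 CPM in GFP-positive and 2.53 to 7.83 CPM in GFP-negative libraries. Idua and Arsb were at 0 in GFP-positive library 2, and Arsb also in GFP-negative library 2. All 5 overlapped between the groups. Galns, which desulphates keratan sulphate, was read at 312, 0 and 0 counts in GFP-positive libraries and 5, 250 and 0 counts in GFP-negative libraries. Nearly all its reads came from 1 library of each group.

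Among 5 hydrolases of glycogen and of glycoprotein sugars, 1 was higher. That is 20% called, near the 17.8% of all genes tested, so the count is no result about these genes as a list. Man2b1, lysosomal alpha-mannosidase, had 687, 739 and 814 CPM in GFP-positive libraries and 198, 199 and 283 CPM in GFP-negative libraries. All GFP-positive libraries were above all GFP-negative libraries, and Man2b1 passed at 1.72 ± 0.18 (SE; edgeR adjusted p = 0.0013). Fuca1, the fucosidase, had 193, 248 and 200.2 CPM in GFP-positive libraries and 207, 187 and 179 CPM in GFP-negative libraries. Its groups overlapped, and its interval of -0.22 to 0.55 around 0.16 was the only one, of the 19 genes that did not pass, to lie within 1 log2 unit of 0. Gaa, acid alpha-glucosidase, was at 65.7 to 106 CPM in GFP-positive and 55.7 to 69.5 CPM in GFP-negative libraries (0.42 ± 0.27; edgeR adjusted p = 0.357). Aga, which splits the sugar from asparagine, was at 18.1 to 38.4 CPM in GFP-positive and 11.6 to 23.8 CPM in GFP-negative libraries, and Manba, beta-mannosidase, at 22.3 to 75.3 CPM in GFP-positive and 0 to 56.3 CPM in GFP-negative libraries. Neither passed, at 0.65 ± 0.51 for Aga and 0.64 ± 1.53 for Manba.

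All 5 genes of proteases, the thioesterase and the cofactors were higher. Grn, the precursor of the granulins, a lysosomal chaperone-like protein also secreted by macrophages (ENSMUSG00000034708), had 895, 1059 and 1212 CPM in GFP-positive libraries and 130.0, 168 and 167 CPM in GFP-negative libraries. The log2 fold change was 2.77 ± 0.17 (SE; 95% interval 2.36 to 3.18; edgeR adjusted p = 0.000139). Psap, the precursor of the saposins that present sphingolipids to their hydrolases, had 1622, 1635 and 1427 CPM in GFP-positive libraries and 828, 712 and 979 CPM in GFP-negative libraries. Lgmn, the asparaginyl endopeptidase that matures other lysosomal proteases, had 831, 1065 and 1021 CPM in GFP-positive libraries and 276, 271 and 265 CPM in GFP-negative libraries. Neither gene overlapped between groups, at 0.89 ± 0.14 for Psap and 1.85 ± 0.13 for Lgmn (SE; edgeR adjusted p = 0.00679 and 0.000211). Tpp1, a tripeptidyl peptidase, had 373, 333 and 456 CPM in GFP-positive libraries and 170.1, 264 and 189 CPM in GFP-negative libraries. Ppt1, the palmitoyl-protein thioesterase, had 348, 337 and 331 CPM in GFP-positive libraries and 226, 163 and 192 CPM in GFP-negative libraries. Both were apart between groups, at 0.90 ± 0.21 for Tpp1 and 0.81 ± 0.16 for Ppt1 (SE; edgeR adjusted p = 0.0296 and 0.0166). Tpp1 missed the threshold without GFP-positive library 1 or 3 or GFP-negative library 1 or 3 (adjusted p = 0.0679, 0.0736, 0.0979 and 0.104), and Ppt1 without GFP-negative library 2 or 3 (0.0606 and 0.0682). Ppt1 and Grn share exon sequence with Cap1 and Fam171a2 on the opposite strand, and reads of such pairs cannot be told apart without a known strand setting. Cap1 was read at 828 to 958 counts in GFP-positive and 820 to 1126 counts in GFP-negative libraries, and Fam171a2 at 169 to 282 counts in GFP-positive and 93 to 131 counts in GFP-negative libraries. Hexa, Lamp1, Npc1, Idua, Arsa, Arsb, Galc and Sgsh also share exon sequence with an opposite-strand gene; of these partners Rmc1, beside Npc1, had 347, 365 and 1 counts in GFP-positive and 459, 541 and 980 counts in GFP-negative libraries.

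The calls were also counted by abundance, the mean over all 6 libraries. A gene could reach a level through the group in which it was high, so this split is not independent of the calls. Cd68, for example, averaged 526 CPM in GFP-positive cells and 55.1 CPM in GFP-negative cells. The counts on each side are a description. Among the 16 genes whose mean log2 CPM was 7 or more, a boundary chosen after the values were seen, 14 were higher, Laptm5 was lower and Fuca1 did not pass, with a median log2 fold change of 1.38. Of all 1550 genes tested at that level, 29.9% were higher and 19.1% lower. Among the 22 genes below it, 3 were higher (Cd63, Gusb and Pla2g15) and Tfeb was lower, with a median of 0.41, and 4.38% of all genes tested below it were higher. Per kilobase of exon, the most abundant of the 40 in GFP-positive cells were Lamp1, Psap, Lgmn, Cd68, Hexa and Grn. They stood at 629.7, 569, 419, 418, 337 and 304 CPM per kilobase. The length is that of all annotated exons of a gene joined, so the order depends on the annotation. In GFP-negative cells the same genes stood at 305, 306, 117, 43.8, 115 and 44.5 CPM per kilobase, and Laptm5 led the order with 391, against 176 in GFP-positive cells.

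**Figure D3:**
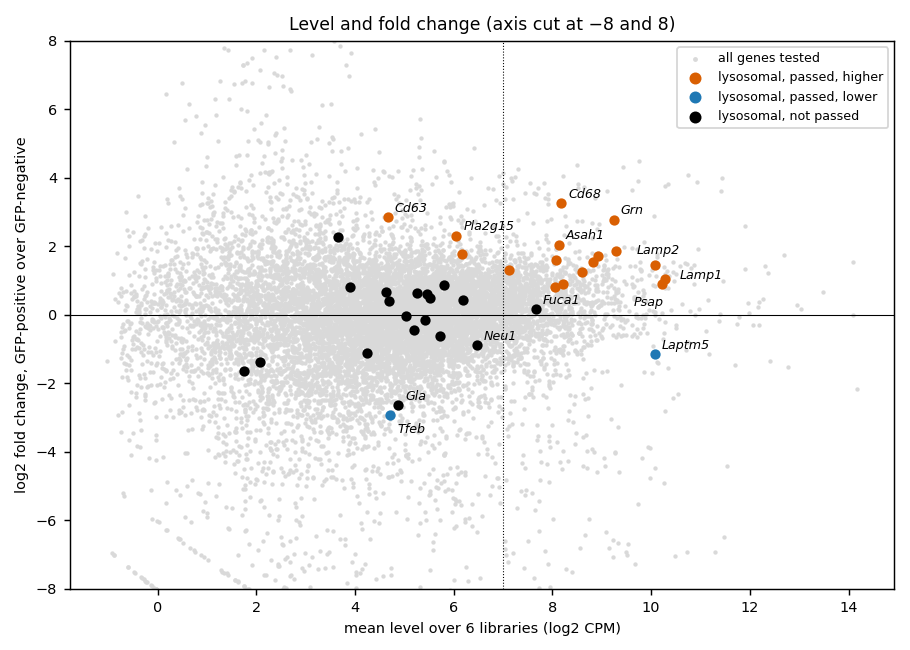
Log2 fold change (GFP-positive over GFP-negative) against mean log2 CPM over the 6 libraries for each of the 38 genes tested, in colour by call, over all genes tested in grey. The dotted line marks a mean log2 CPM of 7, and genes beyond 8 log2 units either way are outside the axis. Of the 16 genes to its right 14 were higher, and of the 22 to its left, 3 were. The mean takes in both groups, so this split is not independent of the calls.

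Proportions between pairs of genes, of which only some have products that work together, were read within each library. These ratios of counts were chosen after the values were seen, and are given as a description with no test. Grn counts per Psap count were 0.552, 0.648 and 0.849 in GFP-positive libraries and 0.157, 0.235 and 0.170 in GFP-negative libraries, a ratio of medians of 3.81. Progranulin and prosaposin bind each other on the way to the lysosome. Hexa counts per count of Gm2a, the activator protein of its enzyme, were 2.28 to 2.77 in GFP-positive and 0.698 to 0.955 in GFP-negative libraries. Gm2a itself did not pass, at a log2 fold change of -0.17. Asah1 counts per Smpd1 count were at least 12.6 in every GFP-positive library and 1.52 to 3.56 in GFP-negative libraries. Neu1 and Glb1 form a complex with Ctsa, which was higher at 0.88 ± 0.12 (SE; edgeR adjusted p = 0.0044). Neu1 per Ctsa count was 0.0380 to 0.164 in GFP-positive and 0.259 to 0.365 in GFP-negative libraries, while Glb1 per Ctsa overlapped between groups. Cd68 per Lamp1 was 0.273 to 0.367 in GFP-positive and 0.0535 to 0.0920 in GFP-negative libraries, and Lamp2 per Lamp1 was 0.869 to 1.03 in GFP-positive and 0.660 to 0.768 in GFP-negative libraries. Laptm5 counts per Cd68 count were 1.10 to 1.43 in GFP-positive and 20.7 to 36.7 in GFP-negative libraries. Npc2 per Npc1 overlapped between groups.

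**Figure D4:**
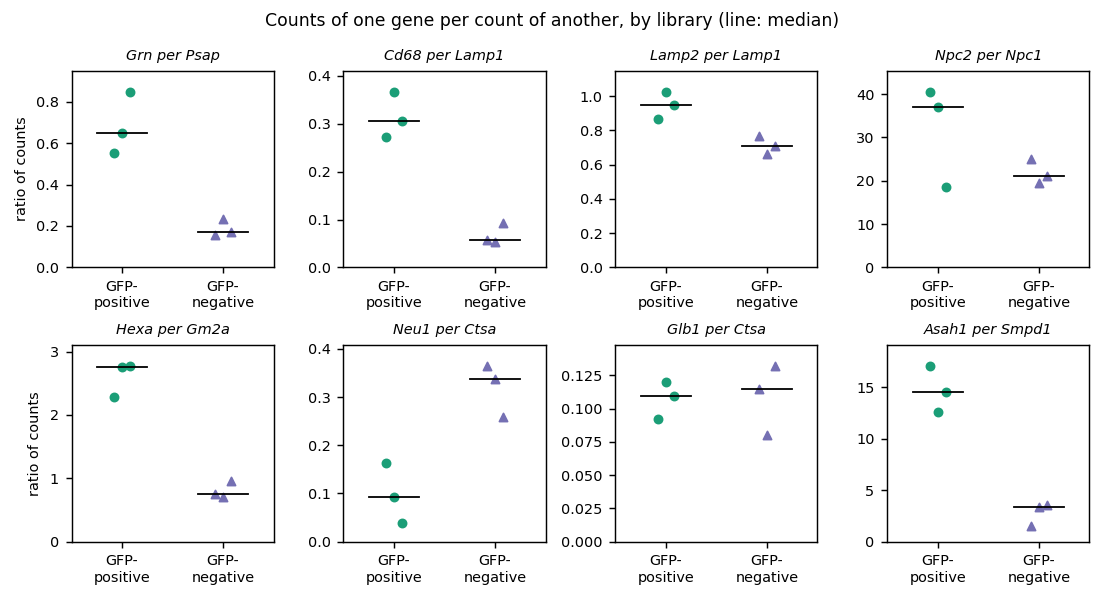
Ratio of counts of paired genes in each library, on linear axes from 0, with GFP-positive libraries left of GFP-negative libraries and a line at each median. Grn per Psap, Hexa per Gm2a and Asah1 per Smpd1 lie higher in every GFP-positive library, Neu1 per Ctsa lies lower, and Npc2 per Npc1 and Glb1 per Ctsa overlap.

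Lysosomal genes outside the 40 were read from the same fit. Of 95 such genes in 4 lists 89 were tested, and 12 were higher and 4 lower, with a median log2 fold change of 0.03. That is 18% called, near the 17.8% of all genes tested, with 13.5% higher and 4.49% lower, against 7.65% and 10.1% of all genes tested. Among 23 other hydrolases tested 7 (30.4%) were higher and 0 lower, led by Smpdl3a, a phosphodiesterase, at 2.88 ± 0.18, the acid phosphatase Acp2 at 3.24 ± 0.29 and Plbd1, a phospholipase B-like protein, at 2.35 ± 0.21 (SE; edgeR adjusted p = 0.000132, 0.000559 and 0.000633). Smpdl3a averaged 536 ± 45.1 CPM in GFP-positive cells and 72.7 ± 12.4 CPM in GFP-negative cells (SD, n = 3 each). Among 27 other membrane proteins tested 2 (7.41%) were higher and 1 (3.7%) was lower, at or below the shares of all genes tested. Slc11a1, the NRAMP1 metal transporter of macrophage phagosomes, had 286 ± 33.7 CPM in GFP-positive cells and 17.5 ± 5.31 CPM in GFP-negative cells, or 4.03 ± 0.29 on the log2 scale (SE; edgeR adjusted p = 0.000272). Laptm4a was higher at 1.32 ± 0.16, the opposite direction to its relative Laptm5, and Lmbrd1, which takes part in cobalamin export, was lower at -1.27 ± 0.23 (SE; edgeR adjusted p = 0.00261 and 0.0118). Lmbrd1 missed the threshold without GFP-negative library 1 (adjusted p = 0.054).

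Of 21 tested genes of delivery to the lysosome 0 were higher and 2 (9.52%) lower, with a median of -0.29. The share lower was near the 10.1% of all genes tested, and 7.65% of all genes tested were higher, so the counts are no result about these genes as a list. Gga2, an adaptor that sorts mannose 6-phosphate receptors at the Golgi, had 63.2 ± 9.56 CPM in GFP-positive cells and 314 ± 17.3 CPM in GFP-negative cells (SD, n = 3 each; log2 fold change -2.31 ± 0.18, SE; edgeR adjusted p = 0.0003). Vps18, a subunit of the HOPS tethering complex, was lower at -1.92 ± 0.43 (edgeR adjusted p = 0.0243) and missed the threshold without GFP-positive library 1 or 3 or GFP-negative library 2 or 3 (at most 0.097), while Vps33a of the same complex did not pass at -0.97 ± 0.38 (adjusted p = 0.136). Of 18 tested genes of the mTORC1 and folliculin pathway that controls TFEB and TFE3, 3 (16.7%) were higher and 1 (5.56%) lower. Their median was 0.10. Together 22.2% were called, near the 17.8% of all genes tested, so the counts are no result about these genes as a list. Without any 1 of the GFP-negative libraries 0 of these genes were called in either direction. The higher genes were Akt1 at 0.65 ± 0.12 and the Ragulator subunits Lamtor4 at 1.55 ± 0.36 and Lamtor1 at 0.74 ± 0.18, and the lower one was Flcn, folliculin, at -0.83 ± 0.21 (SE; edgeR adjusted p = 0.0139, 0.0265, 0.0293 and 0.0358). Akt1 missed the threshold without any 1 GFP-negative library (at most 0.0602), Lamtor4 and Lamtor1 without any 1 library but GFP-positive library 3 (at most 0.0951 and 0.102), and Flcn without any 1 of the 6 (at most 0.121).

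Cathepsins and the proton pump give a comparison within the same organelle. Of 13 cathepsin genes tested 6 (46.2%) were higher and 1 (7.69%) lower, with a median log2 fold change of 1.28. Ctsl, Ctsb and Ctsd, the main endosomal cysteine and aspartic proteases, were higher at 1.78 ± 0.09, 2.60 ± 0.15 and 1.93 ± 0.12 (SE; edgeR adjusted p = 5.3e-05, 0.000125 and 0.00013). The lower one, Ctse, was read at 0 counts in all 3 GFP-positive libraries and at 306, 509 and 556 counts in GFP-negative libraries. Of 16 subunits of the vacuolar ATPase, which acidifies the lumen, 2 (12.5%) were higher and 0 lower, with a median of 0.40, against 7.65% and 10.1% of all genes tested. Atp6v1g1 was at 0.78 ± 0.19, Atp6v1a at 0.69 ± 0.19 and Atp6v1e1, which did not pass, at 0.70 ± 0.20 (SE; edgeR adjusted p = 0.0316, 0.0482 and 0.0536). Atp6v1g1 missed the threshold without any 1 library but GFP-positive library 3, and Atp6v1a without any 1 of the 6 (at most 0.115 and 0.136). The difference between these lists was not tested.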

How the data were processed

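The authors deposited 1 table of raw read counts per gene for the 6 libraries, with 35275 Ensembl gene identifiers, of which 34490 could be given a symbol. Per the submitters' processing notes, the tools were HTSeq 0.6.1, TopHat2 2.0.12, Bowtie2 2.2.3, edgeR, DESeq 1.18.0 and RSEM, with no role stated. The sources used here do not give the genome build, annotation or strand setting. Groups were taken from the labels, which give no shared replicate numbers. Within groups, pairs of libraries had chi-square values of 78.8 to 132 per degree of freedom, above sampling noise, and all 6 were kept.

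The fit used edgeR 4.0.16 in R 4.3.3. Its filter on low counts (minimum 10) left 12122 genes. TMM scaling and the robust quasi-likelihood test were used with Benjamini-Hochberg adjustment over all of them, with the threshold at an adjusted p of 0.05. Standard errors came from the test statistic, and the common biological coefficient of variation was 0.816. CPM are counts scaled by TMM library sizes. Without molecular identifiers, floors of 3 counts over a group (0.0584 CPM GFP-positive, 0.0496 CPM GFP-negative) cover counting error only. Levels per kilobase use the joined length of all exons of a gene in GENCODE M21, not the length of 1 transcript. Exon overlaps are also from GENCODE M21. Alternatives were DESeq2 1.42.0, limma-voom (limma 3.58.1), 2 other normalizations, no filter, removal of immunoglobulin and lymphocyte genes, and each library left out. The procedure was also run on simulated counts that varied less between libraries than these data. That run does not show its error rate or power here.

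The 40 genes and all other lists were chosen with earlier results of these data known. All 40 are named. Values for each library are given for called genes whose mean log2 CPM was 5 or more, for the 3 transcription factors and for genes called lower, and some others follow. Of other lysosomal lists, the 3 genes with the smallest p and any called against most of their list are named; genes named for their partnership with one of the 40 (Gm2a, Ctsa) and Tfec were added after their values were seen. Markers of dendritic cells, neutrophils, platelets, erythroid cells, hepatocytes and stellate cells were also counted.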

Additional observations from a re-analysis of the deposited data

How the results depend on the processing

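Of the 12122 genes tested 2157 changed, and leaving out 1 library at a time gave 994 to 1810. The 17 lysosomal genes called higher became 11 to 16, all among the 17, and the 12 other lysosomal genes called higher became 6 to 9; the lowest counts came without GFP-negative library 1 for all genes (994) and without GFP-negative library 3 for the 40 (11). With 2 libraries in a group the spread is shared with the other group. DESeq2 called 3225 genes, and limma-voom 16 of the 40 higher. The median log2 fold change was 0.72 to 0.91 over these fits, each over those of the 40 genes that it tested. With all libraries it was 0.82 over the 38 genes. Galns and Mitf, not tested there, were tested in some of the other fits. Arsa and Naglu, near 0, changed sign and passed in no fit. Arsa ran from -0.49 to 0.17 over the left-out libraries, at 0.17, 0.08 and 0.17 without GFP-positive library 2, GFP-positive library 3 and GFP-negative library 1. Naglu was at 0.03 under limma-voom and ran from -0.52 to 0.10, at 0.08, 0.10 and 0.03 without GFP-positive library 2, GFP-negative library 1 and GFP-negative library 2; the cause was not tested. No paired analysis was possible because the labels give the groups no shared replicate numbers. Depth limits genes of few counts, and wide intervals of genes that did not pass leave differences of over 1 log2 unit possible for 18 of the 19.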

Other observations

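Several of the 40 genes were read in some libraries of a group and almost not at all in others. Galns, Idua, Arsb, Manba and Mitf had at most 1 count in one library and at least 100 in another of the same group, which is 5 of 40 genes (12.5%), against 2016 of the 11994 genes with at least 100 counts in some library (16.8%). Idua had 190, 0 and 431 counts in GFP-positive libraries and 812, 368 and 332 in GFP-negative libraries. Manba had 684, 1292 and 402 counts in GFP-positive libraries and 653, 0 and 1293 in GFP-negative libraries. Arsb had 70, 0 and 7 counts in GFP-positive libraries and 169, 0 and 143 in GFP-negative libraries, and Mitf had 0, 1 and 466 in GFP-positive libraries and 347, 4 and 8 in GFP-negative libraries. No single library held all of the gaps. GFP-positive library 2 held gaps of Galns, Idua and Mitf, and GFP-negative library 2 held those of Arsb and Manba. Galns also had gaps in GFP-positive library 3 and GFP-negative library 3, and Mitf in GFP-positive library 1.

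Markers of further cell types were counted in the same fit. Their sums also take in listed markers that were not tested. Of 6 platelet markers 3 were higher (2 without GFP-negative library 1 or 2) and 0 lower, at 1714 to 1936 CPM in GFP-positive and 629 to 821 CPM in GFP-negative libraries. Of 14 pan-endothelial markers 9 were higher (5 without GFP-negative library 2 or 3) and 0 lower, at 5300 to 6295 CPM in GFP-positive and 2585 to 2884 CPM in GFP-negative libraries. Of 8 hepatocyte markers 0 were higher and 4 lower (1 to 3 without 1 library, fewest without GFP-negative library 3), at 1018 to 1459 CPM in GFP-positive and 2077 to 2297 CPM in GFP-negative libraries. Of 7 dendritic cell markers 0 were higher and 1, Ccr7, was lower, at 88.5 to 142 CPM in GFP-positive and 3096 to 3636 CPM in GFP-negative libraries. Nearly all of that sum in GFP-negative libraries was Ccr7, and the other dendritic cell markers listed summed to 58.3 to 109 CPM in GFP-positive and 74.3 to 78.1 CPM in GFP-negative libraries, which overlapped. Of 5 stellate cell and fibroblast markers 1 was higher (2 without GFP-positive library 2 or GFP-negative library 3) and 0 lower, at 251 to 304 CPM in GFP-positive and 38.4 to 115 CPM in GFP-negative libraries. Of 4 neutrophil markers tested 0 passed, and 1 without GFP-negative library 3. Neutrophil markers summed to 17.4 to 28.8 CPM in GFP-positive and 5.94 to 12.1 CPM in GFP-negative libraries. Erythroid markers summed to 1159 CPM in GFP-positive library 1 and to at most 54.6 CPM in the other GFP-positive libraries, against 6099 to 8518 CPM in GFP-negative libraries. Each of the 5 erythroid markers tested was below every GFP-negative library in every GFP-positive library; 0 passed with all libraries, and 4 were lower without GFP-positive library 1. The part of these cells in the lysosomal results was not tested.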
